A study of Mus musculus with 12 samples.

Results

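The microvillus cytoskeleton genes examined here are 10 genes that build, anchor or link the microvilli of the intestinal brush border: Vil1, Espn, Pls1, Eps8, Ezr, Myo1a, Cdhr2, Cdhr5, Ush1c and Myo7b. Their rows were found by symbol, as rows of the deposited array table whose only platform gene symbol is one of these names. The list of genes itself was drawn up with earlier results of these data known. All 10 were found, each with 1 probe set, among 19938 genes that had a probe set of a single symbol. All 10 lay above the median signal of the array, so none was lost to a filter on low values.

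A microvillus is a finger of membrane held up by a core of parallel actin filaments. Bundling proteins pack the filaments, proteins at the tip control their growth, ezrin and a class I myosin tie the core to the membrane, and cadherins at the tips join neighbouring microvilli into an even brush border. In the jejunum this surface carries the digestive enzymes and nutrient transporters of the enterocyte, the absorptive cell of the villus.

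The arrays came from whole jejunum, the middle stretch of the small intestine, of Fgfr1op knockout (KO) and wild-type (WT) mice at days 6, 9 and 12 after tamoxifen. Fgfr1op, now named Cep43, encodes a protein of the centrosome. Intraperitoneal tamoxifen, 75 mg/kg on each of 5 days, induced the deletion, and the labels of KO and WT arrays give the same drug protocol and days after it. There were 2 mice in each of the 6 groups, so 12 arrays: KO at day 6, day 9 and day 12, and WT at the same days. The labels do not say what drives the recombinase, which part of the gene it removes, the age or strain of the mice, or whether WT mice carried the recombinase. Effects of the recombinase itself and of gene loss therefore cannot be told apart in any difference between KO and WT.

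Signals are on the log2 scale, where 1 unit is a 2-fold difference. Each KO minus WT difference was tested with limma, a linear model whose error is moderated across all genes, and passed at an adjusted p under 0.05. The tissue label was checked first. Lct, the lactase of the brush border, had log2 signals from 11.50 to 12.42 in the 6 WT arrays, and the epithelial adhesion molecule Epcam from 10.98 to 11.31. Cep43 itself had log2 signals of 6.70 and 6.56 in KO at day 6, against 6.97 and 6.90 in WT. It had 6.60 and 6.63 in KO at day 9, against 6.96 and 7.05 in WT. At day 12 it had 6.97 and 6.74 in KO, against 6.83 and 7.04 in WT. KO lay below WT at days 6 and 9, and the groups overlapped at day 12. Averaged over days the difference passed (log2 -0.26, SE 0.06, limma adjusted p = 0.00713, exact permutation p = 0.0185), with any 1 array left out too. Of the single days it passed at day 9 (log2 -0.39, SE 0.11, adjusted p = 0.0184), a call lost when any 1 of the 4 arrays of that day was left out. The probe set may lie outside the deleted part. The smooth muscle list, 14 measured genes of the gut wall, moved with genotype at day 6. Its array mean, relative to the mean of all WT arrays, was -1.04 and -1.18 in KO, against 0.61 and -0.10 in WT. At day 9 it was 0.25 and -0.82 in KO, against -0.75 and -0.04 in WT, and at day 12 it was 0.87 and 0.29 in KO, against 0.08 and 0.19 in WT. KO lay below WT at day 6, overlapped it at day 9 and lay above it at day 12. Of the 14 genes 1 fell at day 6, and 0 passed with limma at days 9 and 12.

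On GRCm38.p6 the RefSeq gene table places the genes of the actin core as follows: Vil1 at chr1:74409384-74435560, Espn at chr4:152120331-152152414, Pls1 at chr9:95752642-95845306 and Eps8 at chr6:137477245-137649397. It places the genes of the membrane links, Ezr at chr17:6738131-6782780 and Myo1a at chr10:127703436-127720940, and those of the adhesion complex, Cdhr2 at chr13:54701463-54736662, Cdhr5 at chr7:141269080-141276795 and Ush1c at chr7:46195350-46238490. Promoter windows from RefSeq matched 8 of the 10 genes; Eps8 and Myo7b had no match. The 250 bases before the annotated start are shown for Vil1, Pls1 and Ush1c, whose day 9 difference passed whatever array was left out, and for Cdhr5, the one member not called lower at day 12. The difference of Myo1a also passed at day 9 whatever array was left out, but its window lies inside the annotated gene and is not shown. The windows of Pls1 and Cdhr5 overlap the first bases of the annotated gene. Sequences run 5′ to 3′ on the gene's own strand, and capitals mark matches to the motifs named after them.
Vil1 (chr1:74409134-74409383, plus strand): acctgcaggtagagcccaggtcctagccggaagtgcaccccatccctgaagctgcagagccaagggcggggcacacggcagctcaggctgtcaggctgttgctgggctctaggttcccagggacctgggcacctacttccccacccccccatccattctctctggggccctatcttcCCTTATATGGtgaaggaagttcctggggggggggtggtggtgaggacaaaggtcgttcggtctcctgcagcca
Pls1 (chr9:95845280-95845529, minus strand): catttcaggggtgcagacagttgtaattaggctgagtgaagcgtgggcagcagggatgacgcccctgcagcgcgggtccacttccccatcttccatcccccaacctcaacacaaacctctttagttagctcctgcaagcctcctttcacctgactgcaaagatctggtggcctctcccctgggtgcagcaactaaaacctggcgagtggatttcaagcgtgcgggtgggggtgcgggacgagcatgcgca
Ush1c (chr7:46238491-46238740, minus strand): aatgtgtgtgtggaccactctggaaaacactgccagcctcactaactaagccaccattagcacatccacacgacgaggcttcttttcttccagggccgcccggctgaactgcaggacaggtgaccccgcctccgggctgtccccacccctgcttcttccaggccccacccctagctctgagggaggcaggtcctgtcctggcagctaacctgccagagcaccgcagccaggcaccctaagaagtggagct
Cdhr5 (chr7:141276787-141277036, minus strand): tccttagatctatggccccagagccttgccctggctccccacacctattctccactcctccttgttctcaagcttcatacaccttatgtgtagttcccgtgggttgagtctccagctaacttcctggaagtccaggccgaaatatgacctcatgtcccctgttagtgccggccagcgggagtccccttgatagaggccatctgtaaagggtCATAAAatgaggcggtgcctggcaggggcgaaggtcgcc

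Motifs of factors with known roles in enterocytes and in actin genes were searched on both strands of these windows. The core of the HNF4 site, AAAGTCC, occurred in 0 of the 10 windows of the 8 genes, against 3.58% of all 32851 promoter windows. The core of the CDX site, CATAAA, occurred in 2 of the 10, that of Cdhr5 and 1 of the 3 windows of Espn, against 10.8% of all windows. The CACCC element of KLF factors, CACACCC, occurred in 1 of the 10, the same window of Espn, against 6.93% of all windows. The CArG box, the site of serum response factor, occurred in 1 of the 10, against 1.47% of all windows. It lay in the window of Vil1, as CCTTATATGG between 73 and 64 bases before the start. No matches overlapped, and none of the 4 patterns occurred in the windows of Pls1, Myo1a and Ush1c. The matches are a description of the letters only.

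At day 6 the microvillus cytoskeleton genes of KO jejunum stood close to those of WT. By day 9 most of them were lower in KO, by 1.21-fold to 1.81-fold among those that passed, and at day 12 they were lower by 1.24-fold to 1.95-fold. Vil1, Pls1, Eps8, Ezr, Myo1a and Ush1c fell at both days, and Cdhr5 did not pass at day 12. In whole tissue, fewer cells of a type and less RNA per cell cannot be told apart.

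**Figure D1:**
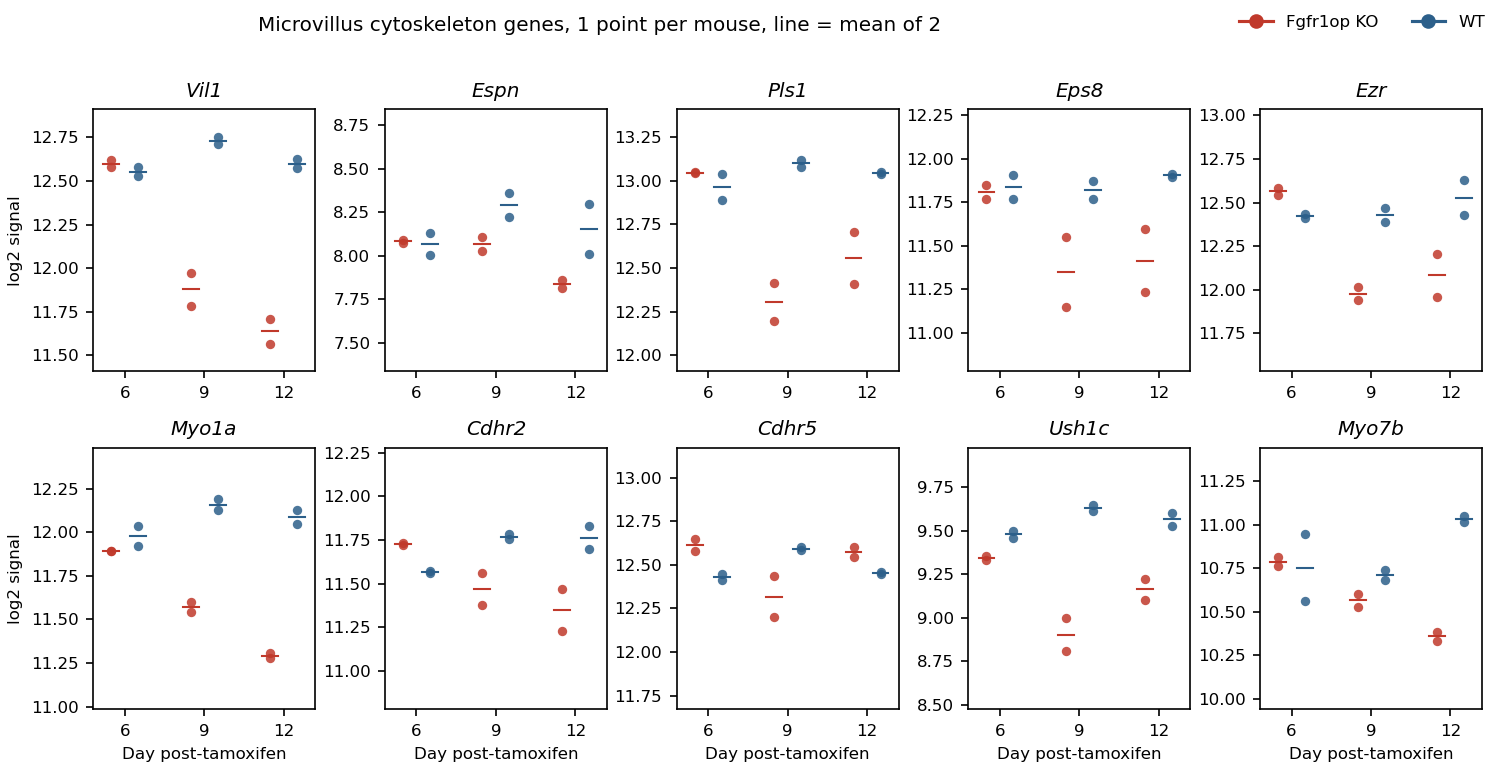
Log2 array signal (vertical axis, 1.5 log2 units high in every panel) of the 10 microvillus cytoskeleton genes by day after tamoxifen (horizontal axis), with 1 point per mouse and a line at the mean of the 2 mice. KO (red) lies left of WT (blue); the KO points of all 10 genes lie below the WT points at day 9, and those of Cdhr5 lie above them at day 12.

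Counted over the set, 0 of 10 genes passed at day 6 with limma, where 1.03% of all genes passed. At an unadjusted p under 0.05 it was also 0 of 10, where 11.8% of all genes lay under it. At day 9, 7 fell, 0 rose and 3 did not pass, where 17.1% of all genes were called lower. At day 12, 9 fell, 0 rose and 1 did not pass, where 13.7% of all genes were called lower. The median log2 difference of the set was 0.04 at day 6, -0.46 at day 9 and -0.47 at day 12, beside medians over all genes of 0.00, 0.02 and 0.02. The day 9 count was 4 without KO day 9 replicate 1, 4 without WT day 9 replicate 2 and 4 with quantile normalisation, and each time the genes were Vil1, Pls1, Myo1a and Ush1c. The day 12 count was 5 without KO day 12 replicate 1 and 4 without WT day 12 replicate 1, and 5 when only the arrays of that day were fitted. With the smooth muscle mean as a covariate 6 members fell at day 9 and 7 at day 12. Quantile normalisation also moved the share of lower genes among all calls at day 9 to 47.2%, against 57.7% with the deposited values.

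At day 9 both KO arrays lay under both WT arrays for 10 of 10 genes, where 31.1% of all genes did so. At day 12 this held for 9 of 10, where 26.6% of all genes did so, and both KO arrays of Cdhr5 lay over WT, where 31.6% did so. At day 6 both KO arrays lay under WT for 2 genes and over WT for 4, where 20.9% and 23.7% of all genes did so. For Vil1, Pls1, Eps8, Ezr, Myo1a and Ush1c, all 4 KO arrays of days 9 and 12 lay under all 6 WT arrays of the series. That held for 11.7% of all genes.

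**Figure D2:**
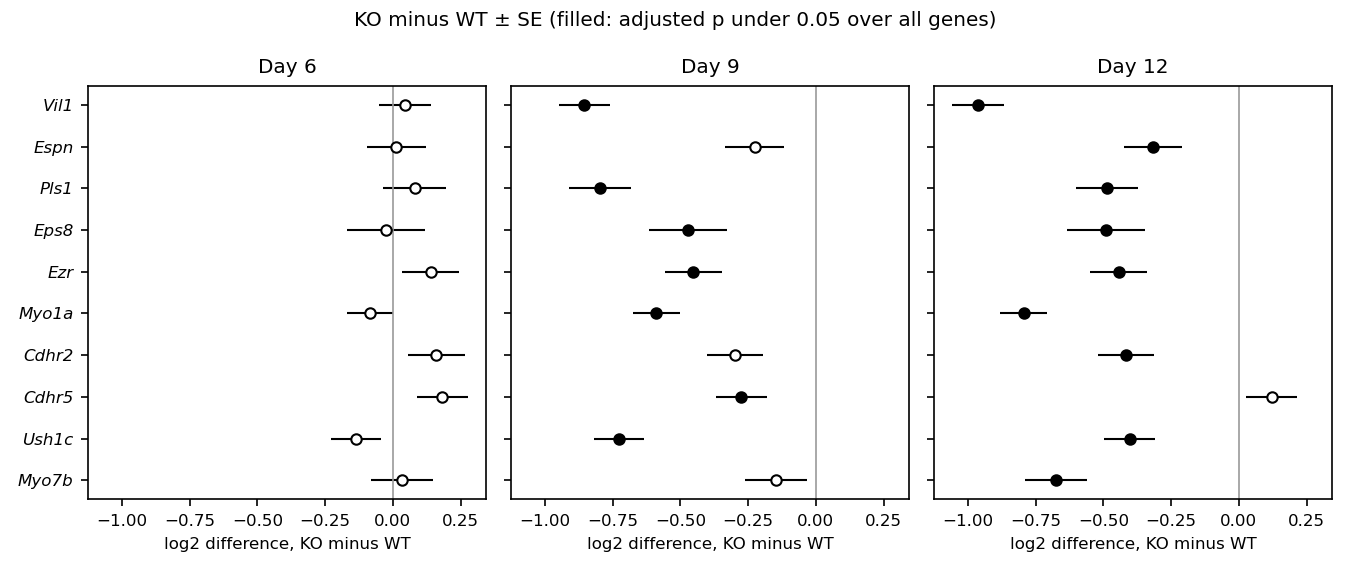
Log2 difference of KO minus WT (horizontal axis) with its standard error for the 10 genes at each day, in order of role from actin core to adhesion complex. Filled points passed an adjusted p of 0.05 over all 19938 genes: 0 at day 6, 7 at day 9 and 9 at day 12, all of them below 0.

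Of the actin bundlers, Vil1 fell furthest. It encodes villin, which bundles actin filaments and severs them when calcium rises. Its log2 signals were 12.58 and 12.62 in KO at day 6, against 12.58 and 12.53 in WT. They were 11.78 and 11.97 in KO at day 9, against 12.71 and 12.75 in WT. They were 11.57 and 11.71 in KO at day 12, against 12.63 and 12.57 in WT. The genotypes overlapped at day 6 and were wide apart at both later days. Vil1 was 1.81-fold lower in KO at day 9 (log2 -0.85, SE 0.09, limma adjusted p = 5.28e-05) and 1.95-fold lower at day 12 (log2 -0.96, SE 0.09, adjusted p = 1.74e-05). Both calls held with any 1 array left out.

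Pls1, the intestinal plastin also called fimbrin, which cross-links parallel filaments and ties them to the terminal web, also fell at both days. Its log2 signals were 12.20 and 12.41 in KO at day 9, against 13.12 and 13.08 in WT. They were 12.41 and 12.71 in KO at day 12, against 13.05 and 13.04 in WT. KO lay well under WT at both days. At day 6 the values were 13.05 and 13.04 in KO, against 13.04 and 12.89 in WT. Pls1 was 1.74-fold lower in KO at day 9 (log2 -0.80, SE 0.11, adjusted p = 3.40e-04) and 1.40-fold lower at day 12 (log2 -0.49, SE 0.11, adjusted p = 0.00784). At day 12 it did not pass once KO replicate 1 of that day was left out (log2 -0.34, adjusted p = 0.0633).

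Espn, which encodes espin, a bundler best known from the stereocilia of inner ear hair cells, moved least among the bundlers. Its log2 signals were 8.09 and 8.07 in KO at day 6, against 8.01 and 8.13 in WT. They were 8.11 and 8.02 in KO at day 9, against 8.22 and 8.36 in WT. They were 7.86 and 7.82 in KO at day 12, against 8.30 and 8.01 in WT. KO lay below WT of the same day at days 9 and 12, but the KO values of day 9 lay within the range of the 6 WT arrays, 8.01 to 8.36. The difference did not pass at day 9 (log2 -0.23, SE 0.11, adjusted p = 0.145). At day 12 it passed narrowly (log2 -0.32, SE 0.11, adjusted p = 0.0499), a call that ended in 11 of the 12 fits with 1 array left out. Without WT day 12 replicate 1 the difference was -0.17.

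Eps8, a capping and bundling protein of the microvillus tip that sets filament length, had log2 signals of 11.85 and 11.77 in KO at day 6, against 11.91 and 11.77 in WT. Its signals were 11.15 and 11.55 in KO at day 9, against 11.87 and 11.77 in WT. They were 11.23 and 11.59 in KO at day 12, against 11.91 and 11.90 in WT. The 2 KO mice differed from each other at both days more than for any other member, and still lay under WT. Eps8 was 1.39-fold lower at day 9 (log2 -0.47, SE 0.14, adjusted p = 0.0289) and 1.41-fold lower at day 12 (log2 -0.49, SE 0.14, adjusted p = 0.0248). Without KO day 9 replicate 1 the day 9 difference was -0.27 (adjusted p = 0.249), and without KO day 12 replicate 1 the day 12 difference was -0.31 (adjusted p = 0.184). These calls also ended without either WT array of the same day, at -0.42 and -0.52 on day 9 and at -0.48 and -0.50 on day 12.

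Of the membrane links, Ezr encodes ezrin, which joins actin to membrane proteins, and Myo1a the class I myosin that bridges core and membrane along the microvillus. Myo1a had log2 signals of 11.89 and 11.89 in KO at day 6, against 12.04 and 11.92 in WT. It had 11.54 and 11.60 in KO at day 9, against 12.13 and 12.19 in WT. It had 11.28 and 11.30 in KO at day 12, against 12.13 and 12.04 in WT. The KO mice of each day lay close together, and each later day lay lower. Myo1a was 1.50-fold lower in KO at day 9 (log2 -0.59, SE 0.09, adjusted p = 3.71e-04) and 1.73-fold lower at day 12 (log2 -0.79, SE 0.09, adjusted p = 3.48e-05), and both calls held with any 1 array left out.

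Ezr had log2 signals of 12.54 and 12.59 in KO at day 6, against 12.44 and 12.41 in WT. It had 11.94 and 12.01 in KO at day 9, against 12.39 and 12.47 in WT. It had 11.96 and 12.21 in KO at day 12, against 12.63 and 12.43 in WT. KO lay slightly above WT at day 6 and below it at both later days. The day 6 difference did not pass (log2 0.14, adjusted p = 0.722). Ezr was 1.37-fold lower at day 9 (log2 -0.45, SE 0.11, adjusted p = 0.00746) and 1.36-fold lower at day 12 (log2 -0.44, SE 0.11, adjusted p = 0.0083). The day 9 call ended with quantile normalisation (log2 -0.20, adjusted p = 0.162) and on leaving out replicate 1 of KO (-0.42, adjusted p = 0.0517) or replicate 2 of WT (-0.41, adjusted p = 0.0620) at that day. The day 12 call was lost on leaving out replicate 1 of KO (-0.32, adjusted p = 0.0648) or replicate 1 of WT (-0.34, adjusted p = 0.0855) at day 12.

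The genes of the intermicrovillar adhesion complex did not all pass on the same days. Whether they moved unequally as a group was not tested. Cdhr2 and Cdhr5 are the protocadherins that bind each other between microvillus tips, Ush1c encodes harmonin, the scaffold under them, and Myo7b is the myosin that brings the complex to the tip. Ush1c had log2 signals of 9.36 and 9.33 in KO at day 6, against 9.46 and 9.50 in WT. It had 8.81 and 9.00 in KO at day 9, against 9.64 and 9.61 in WT. It had 9.10 and 9.22 in KO at day 12, against 9.60 and 9.53 in WT. Ush1c lay under WT at every day, furthest at day 9. It was 1.65-fold lower at day 9 (log2 -0.73, SE 0.09, adjusted p = 1.50e-04) and 1.32-fold lower at day 12 (log2 -0.40, SE 0.09, adjusted p = 0.00696). The day 12 call ended without WT day 12 replicate 1 (log2 -0.37, adjusted p = 0.0560).

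Myo7b, at chr18:31959234-32036931 on GRCm38.p6, passed at day 12 and not at day 9, though the change between these days did not pass (adjusted p = 0.0841). Its log2 signals were 10.81 and 10.76 in KO at day 6, against 10.95 and 10.56 in WT. They were 10.53 and 10.60 in KO at day 9, against 10.68 and 10.74 in WT. They were 10.38 and 10.33 in KO at day 12, against 11.05 and 11.02 in WT. The WT arrays of this gene were spread the widest of the 10, with an SD of 0.20 over 6 mice, and those of day 12 were the highest. The difference did not pass at day 9 (log2 -0.15, SE 0.12, adjusted p = 0.379), where it was 0.06 with quantile normalisation. At day 12 Myo7b was 1.60-fold lower (log2 -0.67, SE 0.12, adjusted p = 0.00102), a call that held with any 1 array left out.

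Cdhr2 had log2 signals of 11.73 and 11.72 in KO at day 6, against 11.56 and 11.57 in WT. It had 11.38 and 11.56 in KO at day 9, against 11.75 and 11.78 in WT. It had 11.47 and 11.23 in KO at day 12, against 11.83 and 11.70 in WT. KO lay above WT at day 6 and below it at days 9 and 12. The day 6 difference (log2 0.16, adjusted p = 0.645) and the day 9 difference (log2 -0.30, SE 0.10, adjusted p = 0.0513) did not pass. At day 12 Cdhr2 was 1.33-fold lower (log2 -0.42, SE 0.10, adjusted p = 0.0113), a call lost on leaving out replicate 2 of KO (-0.30, adjusted p = 0.0791) or replicate 1 of WT (-0.35, adjusted p = 0.0929) at that day.

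Cdhr5 was the one member that did not pass at day 12. Its log2 signals were 12.65 and 12.58 in KO at day 6, against 12.44 and 12.41 in WT. They were 12.20 and 12.44 in KO at day 9, against 12.59 and 12.60 in WT. They were 12.55 and 12.60 in KO at day 12, against 12.45 and 12.46 in WT. KO lay above WT at days 6 and 12 and below it at day 9. The day 9 difference passed narrowly (log2 -0.28, SE 0.09, adjusted p = 0.0475). That call ended in 9 of the 12 fits with 1 array left out, with the difference at -0.16 without KO day 9 replicate 1, and with quantile normalisation (-0.07). The difference at day 12 did not pass (log2 0.12, SE 0.09, adjusted p = 0.416) and was -0.02 when the epithelial marker mean was subtracted.

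Averaged over the 3 days, 8 genes fell and 0 rose, where 16.9% of all genes were called lower, and Espn (log2 -0.18, adjusted p = 0.0501) and Cdhr5 (0.01, adjusted p = 0.922) did not pass. An exact permutation test of single genes, two-sided with genotype permuted within days, can give no p below 0.00926. It gave that value for Myo1a (log2 -0.49) and Ush1c (-0.42), the genes of the set whose KO mean lay below WT at all 3 days together with Eps8. It gave p = 0.0278 for Eps8 (-0.33), p = 0.0370 for Espn, p = 0.0463 for Vil1 (-0.59) and p = 0.0556 for Pls1 (-0.40) in the exact test. For Ezr, Cdhr2, Myo7b and Cdhr5 the exact permutation p was 0.0648, 0.0833, 0.102 and 0.944. These 10 p-values are not adjusted.

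Whether the genotype difference itself changed with day was tested directly. From day 6 to day 9 it moved down for 6 of 10 genes, where 9.19% of all genes did so: Vil1 (log2 change -0.90, SE 0.13, adjusted p = 0.00162), Pls1 (-0.88, SE 0.16, adjusted p = 0.00557), Ush1c (-0.59), Ezr (-0.59), Myo1a (-0.50) and Cdhr5 (-0.46). Leaving out KO day 6 replicate 1, KO day 9 replicate 1 or WT day 9 replicate 1 left 2 genes, as did quantile normalisation. Leaving out KO day 6 replicate 2, WT day 6 replicate 2 or WT day 9 replicate 2 left 3. With the smooth muscle mean as a covariate 1 gene, Vil1, passed. From day 9 to day 12 the difference moved for 0 of 10 genes with limma, where 6.08% of all genes passed. At an unadjusted p under 0.05 it was 3 of 10, where 22% of all genes lay under it. The values nearest to a call were Myo7b (-0.53, SE 0.16, adjusted p = 0.0841), Cdhr5 (0.40, SE 0.13, adjusted p = 0.107) and Ush1c (0.32, SE 0.13, adjusted p = 0.177), with Myo7b going down and the others up. Over both steps a moderated F test called 7 of 10 genes, where 18.5% of all genes passed. That count was 3 without KO day 6 replicate 1 or 2, and 4 without WT day 6 replicate 1 or 2 or WT day 9 replicate 2.

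Changes over days were also tested within each genotype. Within KO, 8 of 10 genes changed over days by the moderated F test, where 37.6% of all genes did so, and Espn (adjusted p = 0.149) and Cdhr5 (adjusted p = 0.0509) did not pass. That count was 5 without KO day 6 replicate 1 or 2, KO day 9 replicate 1 or WT day 9 replicate 1 or 2. From day 6 to day 9 in KO 7 genes fell, where 14.5% of all genes did so. From day 9 to day 12 in KO Myo1a alone fell (log2 -0.28, SE 0.09, adjusted p = 0.0382), where 8.81% of all genes were called lower. Within WT, 0 of 10 passed with limma, where 0.0201% of all genes passed. At an unadjusted p under 0.05 it was 1 of 10, where 10% of all genes lay under it. These tests share arrays with the comparisons between genotypes, and each day is a separate set of mice.

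The difference of each other member was set against that of Vil1, the member with the largest fall. Ratios to Vil1 therefore tend to stand higher in KO, and the 9 tests share this gene. The log2 ratio of each of the other 9 genes to Vil1 within the same array, which any shift of a whole array leaves unchanged, was compared between genotypes by the exact permutation test within days, with p-values adjusted over the 9 ratios. The ratio of Cdhr5 to Vil1 was higher in KO by 0.14 at day 6, 0.58 at day 9 and 1.08 at day 12 (mean 0.60, exact p = 0.00926, adjusted 0.0278). Its 4 KO arrays of days 9 and 12 lay 0.55 to 1.12 above the WT mean, while the 6 WT arrays lay between -0.05 and 0.03 of it. The ratios of Cdhr2 (mean 0.41) and Ezr (mean 0.34) to Vil1 passed with the same p. The call of Cdhr2 ended without KO day 6 replicate 1 or WT day 12 replicate 2 (exact permutation, adjusted p = 0.0556 both times).

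The other ratios to Vil1 did not pass. Those of Espn (mean 0.41) and Pls1 (0.19) had an adjusted exact p of 0.0667, that of Eps8 (0.26) 0.0694 and that of Myo7b (0.33) 0.0714. The mean was 0.10 for Myo1a (adjusted exact p = 0.177) and 0.17 for Ush1c (0.231). For Myo1a the difference was -0.13, 0.27 and 0.17 at days 6, 9 and 12, and for Ush1c it was -0.18, 0.13 and 0.56, so both means join opposite signs. For Pls1 the ratio differed by 0.06 at day 9 and by 0.48 at day 12. By likeness of profile over the 12 arrays, measured as the root-mean-square difference of log2 values after each gene's own mean was removed, Vil1 was nearest to Myo1a (0.14) and farthest from Cdhr5 (0.40). Ezr and Eps8 were each other's nearest (0.11), as were Espn and Cdhr2 (0.11).

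**Figure D3:**
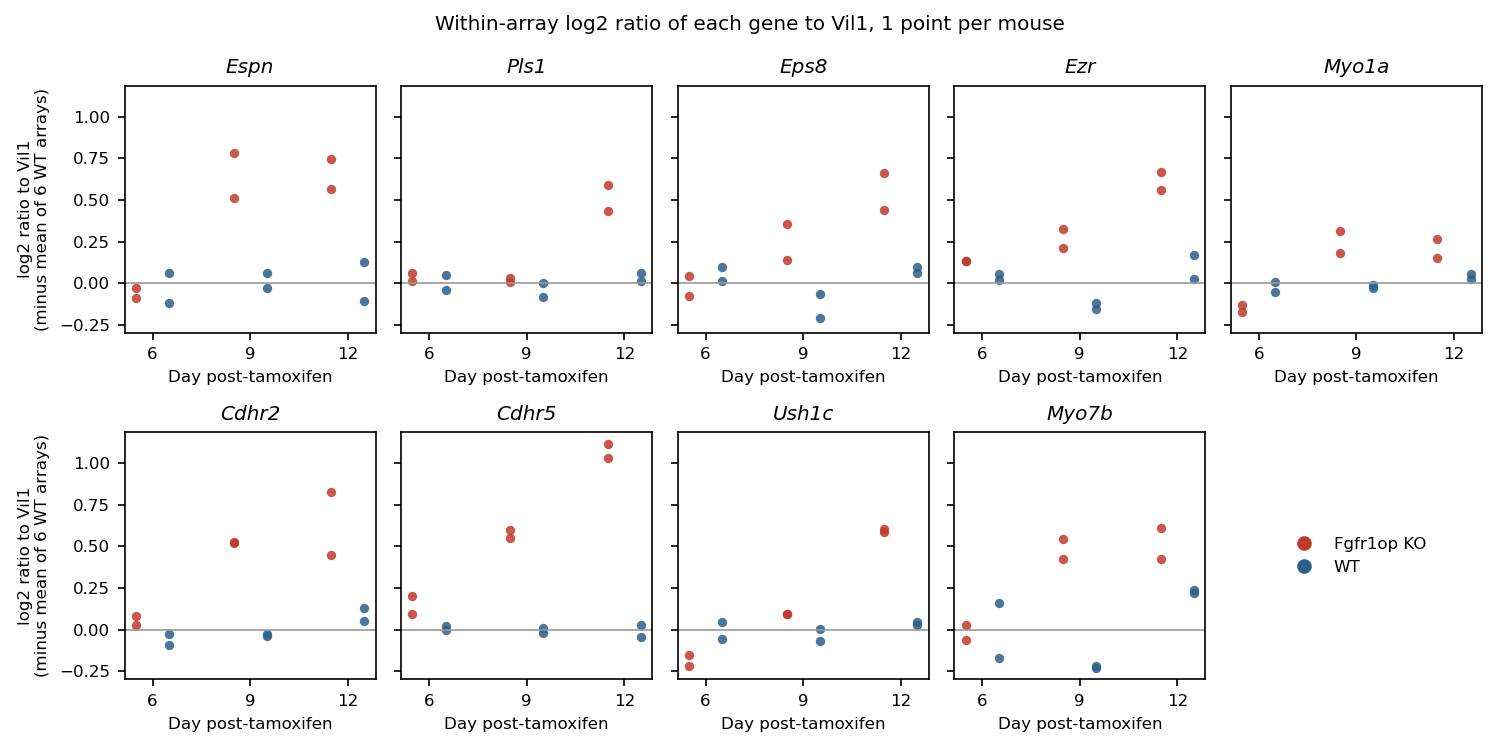
Log2 ratio of each of 9 genes to Vil1 on the same array (vertical axis, relative to the mean of the 6 WT arrays) by day after tamoxifen, with 1 point per mouse, KO (red) left of WT (blue). For Cdhr5 the KO arrays of day 12 lie at 1.12 and 1.03, and for Myo1a the KO arrays of days 9 and 12 lie between 0.15 and 0.31.

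Beyond the 10 genes, a list of 38 measured genes of the microvillus and its cytoskeleton split in direction. Its families are shown with all of their genes on this list. At day 9, 13 of 38 fell, 7 rose and 18 did not pass, and at day 12, 13 fell, 8 rose and 17 did not pass; the medians were -0.04 at both days. Shares of all genes called higher were 12.6% at day 9 and 13.7% at day 12, and shares called lower were 17.1% and 13.7%. The day 9 count of 20 calls was 13 without WT day 9 replicate 1 and 12 without WT day 9 replicate 2. At day 6, 2 of 38 rose, Capg (log2 0.69, adjusted p = 0.0453) and Gsn (0.59, adjusted p = 0.0401), calls that ended in 9 and 6 of the 12 fits with 1 array left out, and 0 fell.

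Of the 4 listed genes of the villin and gelsolin family Vil1 fell and the other three rose at day 12. Capg, which caps actin filaments, had log2 signals of 9.81 and 9.72 in KO at day 9, against 6.32 and 6.39 in WT, a rise of 10.7-fold (log2 3.41, SE 0.14, adjusted p = 3.56e-08). At day 12 it had 9.63 and 9.46 in KO, against 6.34 and 6.52 in WT (log2 3.12). Gelsolin, Gsn, which severs filaments, had 11.00 and 11.05 in KO at day 12, against 10.02 and 9.78 in WT, a rise of 2.19-fold (log2 1.13). At day 9 Gsn did not pass (log2 0.26). Macrophages and stroma are known to express Capg and Gsn as well. Vill, the villin-like gene, rose at day 12 (log2 1.42, SE 0.16), with 7.39 and 6.76 in KO, against 5.66 and 5.65 in WT. Its smaller rise at day 9 (log2 0.60) was lost when any 1 array of day 9 was left out, and its WT signal was not tested against background.

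Paralogues of other members went different ways. Myo1c, a class I myosin of many cell types, had log2 signals of 9.45 and 9.55 in KO at day 9, against 8.22 and 8.14 in WT, a rise of 2.50-fold (log2 1.32, SE 0.09), and it rose by 1.55 at day 12. Myo1d and Myo1e did not pass at any day. Pls3, a plastin of many tissues, did not pass at day 9 (log2 0.14) and was 2.02-fold higher at day 12 (log2 1.02, SE 0.14), with 8.97 and 8.92 in KO, against 7.98 and 7.87 in WT. Lcp1, the leukocyte plastin, fell by 0.68 at day 12 (SE 0.21, adjusted p = 0.0320), a call that ended without KO day 12 replicate 1 or 2 or WT day 12 replicate 2. Eps8l2 fell at both days (log2 -0.68 and -0.63), while Eps8l1 and Eps8l3 did not pass at any day. Radixin, Rdx, and moesin, Msn, the kin of ezrin, did not pass at any day. The families were grouped after the values were seen, with all of their genes on this list included. Avil, of the villin and gelsolin family but counted among the tuft cell markers, was left out. It rose at day 12 (log2 0.73, limma adjusted p = 0.00124).

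Anks4b and Calml4, further partners of the adhesion complex, fell at days 9 and 12. Anks4b, a scaffold that binds harmonin and Myo7b, was 2.38-fold lower in KO at day 9 (log2 -1.25, SE 0.16, adjusted p = 1.21e-04) and 1.86-fold lower at day 12 (log2 -0.90). Calml4, a light chain of Myo7b, fell at both days (log2 -0.34 and -0.65), the day 9 call ending without KO day 9 replicate 1 or either WT array of day 9. Among the largest changes of the list by the naming rule, Pdzk1, a PDZ scaffold for apical transporters, had log2 signals of 6.28 and 6.72 in KO at day 12, against 10.22 and 9.99 in WT (log2 -3.60, SE 0.15, adjusted p = 3.17e-08). It fell by 2.75 on the log2 scale at day 9. Tmigd1, an adhesion molecule of the brush border, fell at days 9 and 12 (log2 -2.59 and -2.41). So did Clic5, which works with ezrin at the base of actin protrusions (-2.14 and -1.52), and Stk10, a kinase that phosphorylates ezrin and its kin (-1.59 and -2.18). Slc9a3r1, the scaffold that ezrin anchors under the membrane, fell less (-0.63 and -0.71). The other way, Clic4, the paralogue of Clic5, rose at both days (0.67 and 1.20), and so did the kinase Slk (0.52 and 0.77). The day 9 call of Slk ended without KO day 9 replicate 2 or either WT array of day 9.

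**Figure D4:**
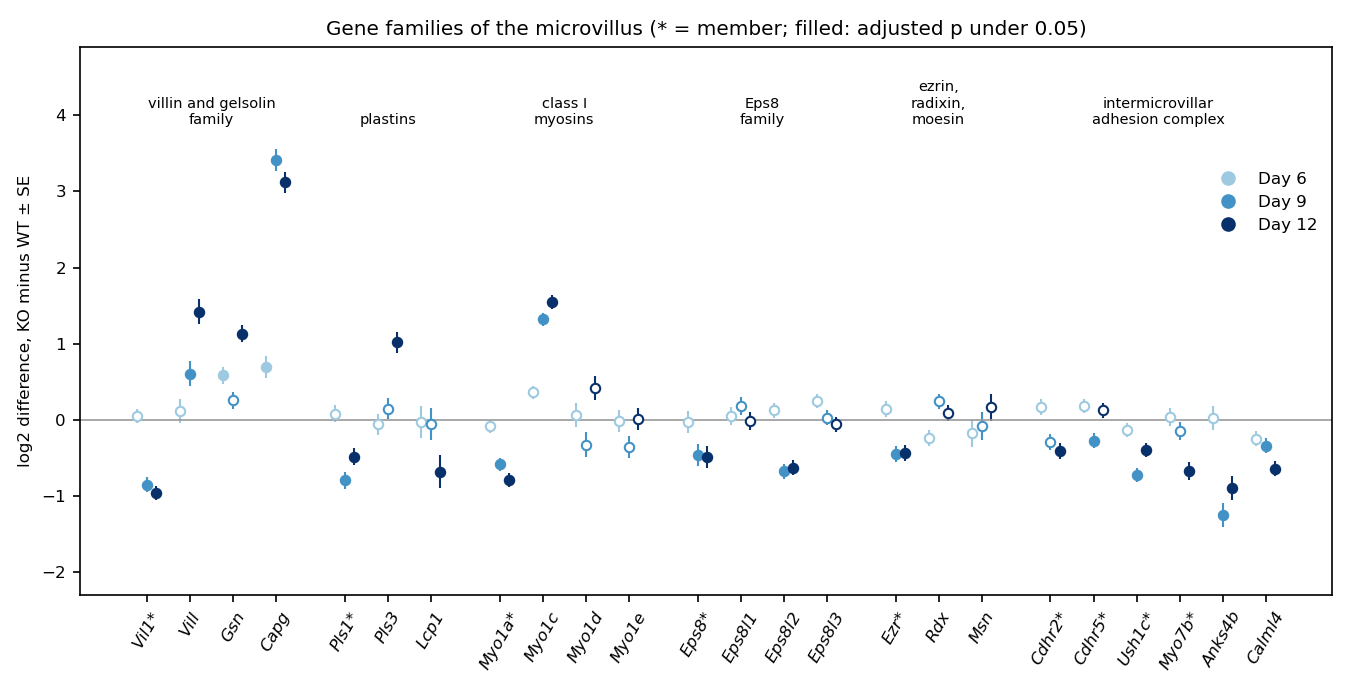
Log2 difference of KO minus WT with its standard error (vertical axis) for the members (starred) and the listed genes of their families and of the adhesion complex, at days 6, 9 and 12. Filled points passed an adjusted p of 0.05: Vil1, Pls1 and Myo1a lie below 0 at days 9 and 12, while Capg reaches 3.41 at day 9 and Myo1c 1.55 at day 12.

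Genes of vesicle transport to the apical membrane, listed together with genes of cell polarity, did not move one way. Of 20, 8 rose, 5 fell and 7 did not pass at day 9, and 8 rose, 3 fell and 9 did not pass at day 12, with 0 calls at day 6. Among all genes 12.6% were called higher and 17.1% lower at day 9. At day 12 it was 13.7% each way. The 5 falls at day 9 were those of Vps33b (log2 -1.88, SE 0.44) and Vipas39 (-0.90, SE 0.11), which form a trafficking complex with each other, the vesicle fusion proteins Vamp7 (-1.16) and Snap23 (-0.59), and Rab8a (-0.62), a small GTPase of apical transport. The largest of the 8 rises were those of the myosin chaperone Unc45a (0.79) and the polarity protein Pard6b (0.68). At day 12 the largest rises were those of Pard6b (0.61), Unc45a (0.56), the recycling GTPase Rab11a (0.51) and the syntaxin-binding Stxbp2 (0.43). The 3 falls were those of Vipas39 (-0.49), Rab8a (-0.42) and the kinase Stk11 (-0.26). The call of Vps33b at day 9 ended without KO day 9 replicate 1, and that of Snap23 without the same array or WT day 9 replicate 2. The call of Stk11 ended in 10 of the 12 fits with 1 array left out, and that of Rab8a at day 12 without KO day 12 replicate 1 or either WT array of day 12. The call of Stxbp2 ended with the epithelial mean subtracted. The count of 13 at day 9 was 8 without KO day 9 replicate 1, 7 without WT day 9 replicate 2 and 8 with the epithelial mean subtracted. The count of 11 at day 12 was 7 without KO day 12 replicate 1 or WT day 12 replicate 1, 6 without WT day 12 replicate 2 and 7 with the epithelial mean subtracted.

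A list of absorptive cell products holds mostly enzymes and transporters of the microvillus membrane, with Fabp1 and Fabp2, which bind lipids in the cytosol, the secreted Apoa4, and Slc2a2, a mainly basolateral sugar transporter. At day 6, 1 of the 19 measured fell, Lct (log2 -1.07, limma adjusted p = 0.0292), where 1.03% of all genes passed. That call ended in 5 of the 12 fits with 1 array left out, and the list median was -0.05. At day 9, 15 of the 19 fell (median log2 -1.69), and Alpi (-0.25), Fabp1 (-0.09), Fabp2 (-0.17) and Apoa4 (0.12) did not pass. At day 12, 16 fell (median -1.91), Sis (-0.52) and Apoa4 (-0.01) did not pass, and Alpi rose. Among all genes 17.1% were called lower at day 9, and 13.7% lower and 13.7% higher at day 12. The medians of the microvillus cytoskeleton genes were -0.46 and -0.47 on the same days. Lct had log2 signals of 6.43 and 6.32 in KO at day 9, against 11.99 and 11.94 in WT, a log2 difference of -5.59. Enpp7, the sphingomyelinase of the brush border, had 5.48 and 6.58 in KO at day 12, against 12.70 and 12.34 in WT, a difference of -6.49. The largest fall among the 10 cytoskeleton genes was -0.96, that of Vil1 at day 12. Alpi, the intestinal alkaline phosphatase, which rose at day 12 (log2 0.42, adjusted p = 0.0147), ended its call without KO day 12 replicate 2 or WT day 12 replicate 2. The difference between the lists was not tested, and differences of array signal understate or overstate those of RNA to a degree that can vary between probe sets.

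**Figure D5:**
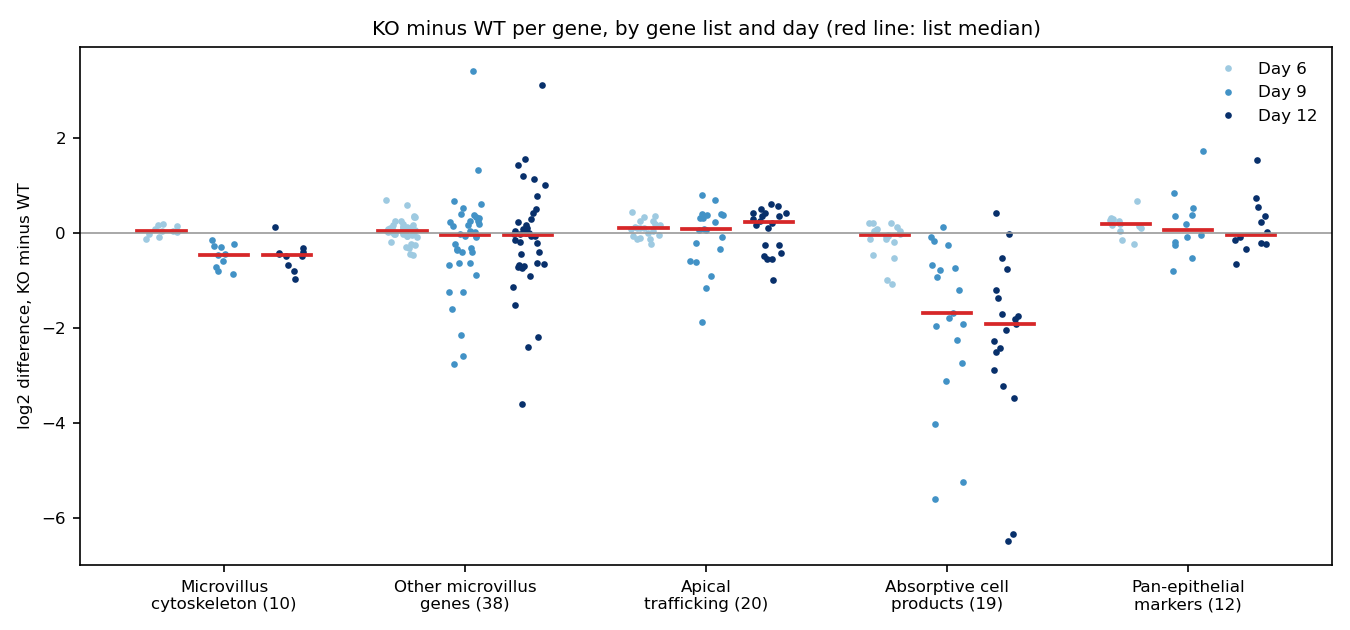
Log2 difference of KO minus WT (vertical axis), with 1 point per gene, for 5 gene lists at days 6, 9 and 12; the number of genes stands under each list and red lines are list medians. The microvillus cytoskeleton genes lie between -0.96 and 0.12 at day 12, and the absorptive cell products between -6.49 and 0.42.

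Markers of the epithelium as a whole did not move one way. Of 12 pan-epithelial genes at day 9, 4 rose, 2 fell and 6 did not pass, and at day 12, 3 rose, 2 fell and 7 did not pass. Shares of all genes were 12.6% higher and 17.1% lower at day 9, and 13.7% each way at day 12. Epcam had log2 signals of 11.26 and 11.25 in KO at day 9, against 11.29 and 11.31 in WT, and it did not pass at any day. The keratin Krt18 rose by 1.71 at day 9 and 1.54 at day 12, and the junction protein Ocln fell at both days (log2 -0.81 and -0.33). The day 12 call of Ocln ended without KO day 12 replicate 1 or either WT array of day 12. The mean of the 12 genes, relative to all WT arrays, was 0.29 and 0.29 in KO at day 9, against 0.11 and 0.12 in WT. At day 12 it was 0.23 and 0.02 in KO, against 0.05 and -0.10 in WT. It stood higher in KO at day 9 and overlapped at day 12. With that mean subtracted from every array, 9 of the 10 cytoskeleton genes fell at day 9 (median log2 -0.63), where 22.8% of all genes were called lower, and 9 at day 12 (median -0.61), where 17.4% were. Myo7b did not pass at day 9 and Cdhr5 did not pass at day 12. The subtracted mean holds Krt18 and a further keratin, Krt8, which rose by 0.84 at day 9. By contrast, the median difference of the 12 genes was 0.07 at day 9 and -0.04 at day 12. How far the keratins set the counts after subtraction was not tested.

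Markers of other cell types were counted at the same days. The counts stand beside shares of all genes of 12.6% higher and 17.1% lower at day 9, and 13.7% each way at day 12. Of 10 fibroblast markers 5 rose and 0 fell at day 9 and again at day 12. Their list mean, relative to all WT arrays, was 0.47 and 0.37 in KO at day 9, against -0.20 and 0.16 in WT. It was 0.68 and 0.52 in KO at day 12, against 0.22 and 0.17 in WT. Of 13 immune markers 2 rose and 3 fell at day 9, and 1 rose and 6 fell at day 12. Of 8 tuft cell markers, which mark a cell type that also bears villin-rich microvilli, 0 rose and 4 fell at day 9, and 1 rose and 5 fell at day 12. Their list mean, relative to all WT arrays, was -0.33 and -0.43 in KO at day 9, against 0.00 and 0.08 in WT. It was -0.54 and -0.65 in KO at day 12, against 0.02 and 0.20 in WT. Of 7 goblet cell genes 0 passed at day 9, while 1 rose and 1 fell at day 12. Of 6 Paneth cell genes 0 passed at day 9 and 5 fell at day 12. Of 9 enteroendocrine genes 1 fell at day 9, and 1 rose and 2 fell at day 12. Of 7 enteric neuron and glia genes 1, Ret, rose at both days (log2 2.21 and 2.47), and 6 did not pass. Endothelial and pancreatic lists had at most 1 call each at either day. The part of these cell types in the differences of the microvillus genes was not tested.

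The 5 genes of the array whose profile over the 12 arrays was most like the mean profile of the members were Ganab, a glucosidase subunit of the endoplasmic reticulum, Cdc123, a translation factor chaperone, Sec14l1, a lipid-binding protein, Plcb3, a phospholipase C, and Tmco6. Their root-mean-square differences from it were 0.05 to 0.06 on the log2 scale over 12 arrays, against 0.08 to 0.21 for the members themselves. These genes were picked from the whole array for the smallest such difference, so values below those of the members can follow from the choice alone. Plcb3 had log2 differences of -0.55 at day 9 and -0.60 at day 12, and Ganab of -0.39 and -0.55.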

How the data were processed

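Whole jejunum RNA of 12 mice was measured on 12 Affymetrix Mouse Gene 1.0 ST arrays, per the labels' protocols. The values deposited by the authors are log2 signals of 35556 probe sets. They were used as they stand, with array medians between 5.95 and 6.02. Limma and R 3.5 stand in the submitters' processing notes, and no source used here states how the arrays were background-corrected, summarised or normalised.

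GEO's platform annotation gave 1 symbol to 21789 probe sets and several to 1621, and left 12146 unnamed. For each of 19938 genes the probe set with the highest mean was kept. A model of 6 group means was fitted (limma 3.58.1, R 4.3.3) over all 12 arrays (6 residual and 5.23 prior degrees of freedom). P-values were two-sided and adjusted by the Benjamini-Hochberg method over all genes, with a threshold of 0.05. With 2 mice against 2, the smallest p of a permutation test at 1 day is 0.333. Nothing states that mice came from separate litters. The number of arrays limits the precision. In a simulation of the day 9 comparison with 19938 genes, the fit recovered 88% of 2-fold and 99% of 4-fold changes. It altered 200 genes and drew errors independently, whereas 5917 genes were called at day 9 in the data. Changes under 2-fold, the size of those of all members, were not simulated.

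The members, lists and tests were chosen with earlier results of these data known. Named genes were all members, the targeted gene, up to 6 called genes per list and comparison with the largest differences, and the 5 genes nearest to the mean member profile. Other named genes, such as paralogues and markers, were chosen after their values were seen. Alternatives were 9 settings and each array left out in turn.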

Additional observations from a re-analysis of the deposited data

Results flagged for a closer look

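The genotype difference of 6 of 10 members moved down between day 6 and day 9 by a direct test of that change (limma, adjusted over all genes). Among all genes 9.19% were called to move down. Fewer members passed under several of the settings given below. The log2 change of KO minus WT was -0.90 for Vil1, -0.88 for Pls1, -0.59 for Ezr, -0.59 for Ush1c, -0.50 for Myo1a and -0.46 for Cdhr5. For the first 5 of these the moderated F test over both steps also passed, as it did for Myo7b and Cdhr2, which passed at neither step alone. From day 6 to day 9 the change was -0.18 for Myo7b and -0.46 for Cdhr2. From day 9 to day 12 it was -0.53 for Myo7b and -0.12 for Cdhr2. The moderated F test passed for 18.5% of all genes. Its adjusted p was 0.000763 for Vil1, 0.00901 for Pls1, 0.0232 for Ezr, 0.0242 for Ush1c, 0.00535 for Myo1a, 0.0239 for Myo7b and 0.0359 for Cdhr2. For Cdhr5 the F test did not pass. No group held 4 mice, so no sample was screened as lying far from its group.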

How the results depend on the processing

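With 2 mice a group, a difference near the threshold rests on single arrays, and no array signal was tested against background. With quantile normalisation, members called were 4 at day 9, 2 for the day 6 to 9 change, 1 for the day 9 to 12 change and 4 by the genotype by day F test. With the smooth muscle mean as covariate they were 1 for the day 6 to 9 change, 1 by that F test and 5 by the F test within KO. With the epithelial mean subtracted they were 2 for the day 6 to 9 change and 3 by the genotype by day F test. Fitting only the arrays of the day left 5 at day 12. Leaving out 1 array gave 0 to 0 members at day 6, 4 to 8 at day 9, 4 to 8 at day 12, 7 to 9 averaged over days, 2 to 8 for the day 6 to 9 change, 0 to 1 for the day 9 to 12 change, 3 to 8 by the genotype by day F test, 5 to 9 by the F test within KO and 0 to 0 within WT. It gave 2 to 5 ratios to Vil1. The causes were not tested.

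Of other microvillus genes at day 6, 1 passed with quantile normalisation, 1 with only that day's arrays, and 0 with the replicate block, the smooth muscle covariate or the epithelial subtraction. Leaving out 1 array gave 0 to 2 at day 6, 12 to 22 at day 9 and 19 to 22 at day 12. Of apical trafficking genes, 1 passed at day 6 with arrays centred on medians and 1 with dim genes left out. At day 9, 8 passed with the epithelial subtraction. At day 12, 6 passed with only that day's arrays and 7 with the epithelial subtraction. Leaving out 1 array gave 0 to 0, 7 to 13 and 6 to 14 at the 3 days.

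Same-numbered KO and WT mice deviated together with a correlation of 0.18 at day 6, -0.09 at day 9 and 0.11 at day 12, so the numbers were not taken as pairs. With the replicate block 0 members passed at day 6, 6 at day 9, 8 at day 12, 8 averaged over days, 5 for the day 6 to 9 change, 7 by the genotype by day F test and 7 within KO, and 19 and 21 other microvillus genes passed at days 9 and 12.

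The following differences changed sign, and none of them was called in the deposited values. At day 6, quantile normalisation gave -0.0080 for Vil1, -0.015 for Espn and -0.026 for Myo7b, and centring gave 0.0040 for Eps8. The smooth muscle covariate gave -0.077 for Vil1 and -0.10 for Pls1. The epithelial subtraction gave -0.12 for Vil1, -0.028 for Ezr, -0.15 for Espn, -0.087 for Pls1, -0.13 for Myo7b and -0.0065 for Cdhr2. At day 9 Myo7b was 0.061 with quantile normalisation, which gave 0.087 for its day 6 to 9 change and -0.11 for the day 9 to 12 change of Ezr. For Eps8 the day 9 to 12 change was 0.059 with the covariate and 0.0091 with the subtraction. Cdhr5 was -0.022 at day 12 with the subtraction, and averaged over days -0.017 with the covariate and -0.15 with the subtraction. With 1 array left out, the day 6 difference lay between -0.10 and 0.045 for Eps8, -0.050 and 0.077 for Espn, and -0.16 and 0.23 for Myo7b. The day 6 to 9 change of Myo7b lay between -0.37 and 0.012. The day 9 to 12 change lay between -0.11 and 0.13 for Ezr, -0.22 and 0.18 for Eps8, -0.23 and 0.054 for Espn, and -0.24 and 0.0015 for Cdhr2, and the average of Cdhr5 between -0.030 and 0.049.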
